A study of Mus musculus with 183 samples.

Results

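The mRNAs described here are those of the 5 Kmt2 genes (Kmt2a, Kmt2b, Kmt2c, Kmt2d and Kmt2e) and of 2 helicases that unwind G-quadruplexes, Dhx36 and Dhx9. They were chosen by gene name, not by any measured value, though earlier results of these data were known. They make up 7 of the 53380 genes of the half-life count table and 7 of the 7240 mRNAs of the pooled CRAC table. KMT2 proteins, also known as MLL proteins, are the large catalytic subunits of COMPASS-like complexes, which methylate lysine 4 of histone H3. KMT2A and KMT2B act at promoters, KMT2C and KMT2D mainly at enhancers, and KMT2E carries a SET domain for which little methyltransferase activity is known. G-quadruplexes are stacks of guanine tetrads that G-rich RNA can fold into and that can hinder ribosomes. DHX36 unwinds such structures in RNA and DNA, DHX9 (RNA helicase A) unwinds double-stranded RNA, RNA:DNA hybrids and G-quadruplexes, and AVEN is an RNA-binding protein with an arginine- and glycine-rich domain that has been linked to G-quadruplexes in the coding regions of MLL mRNAs and to DHX36.

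Decay was followed by rRNA-depleted RNA-seq in 2 mouse embryonic stem cell (mESC) lines. Clone 5F (Rosa26Cre-ERT2/- Skiv2l fl/fl) carries loxP sites around the exons that encode the catalytic domain of SKIV2L, the helicase that feeds cytoplasmic RNA to the exosome, and a Cre recombinase that 4-hydroxytamoxifen (4OHT) activates. Clone 7E carries the same loxP sites in an Aven-/- background in which the endogenous Skiv2l is tagged with 3xFLAG-Avi and the Rosa26 locus also expresses the biotin ligase BirA. The labels of its half-life libraries leave the loxP sites out, and the genotype is taken from the study's list of lines and the labels of other libraries of the clone. Each clone was sampled before 4OHT (day 0) and after 4 days of it (day 4), on each occasion after a mock treatment (0 min, DMSO) and after 120, 240 and 360 min of actinomycin D, which stops transcription. Every group held 3 libraries except clone 5F at day 0 and 120 min, of which 2 were analysed here. The study calls such replicates technical, so p-values measure the spread between these libraries alone. With 1 clone per genotype, loss of AVEN, the tag on SKIV2L, BirA and clonal history cannot be told apart. None of these libraries at day 4 lacked 4OHT, and no treated clone lacked the loxP sites. Between days, 4OHT itself, Cre activity, deletion in Skiv2l and time in culture therefore cannot be told apart.

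To show where a G-quadruplex could form, the transcripts were searched on the RNA strand for 4 runs of GGG with 1 to 7 bases between the runs, without overlaps between matches. Of the 7 mRNAs, 3 held a match, and each match lay on the minus strand of GRCm38, the build of the files. Kmt2a (chr9:44803355-44881296) held its match in exon 1 of 36, near the start of the coding sequence, at chr9:44881053-44881080. In Kmt2b (chr7:30568858-30588726) the match lay in the coding part of exon 8 of 37, at chr7:30583355-30583381. Kmt2d (chr15:98831669-98871204) held 1 match in the coding part of exon 32 of 55, at chr15:98852122-98852145, and 1 in the 3′ UTR in exon 55, at chr15:98833458-98833481. The 4 matches are shown 5′ to 3′ on the RNA strand, in DNA letters, with the runs of 3 or more G in capitals.
Kmt2a coding match: GGGaagcagcGGGGctGGGGttccaGGG
Kmt2b coding match: GGGGGGcGGGagctGGGGGGtcccGGG
Kmt2d coding match: GGGcccacaGGGGaGGGctatGGG
Kmt2d 3′ UTR match: GGGGtgtGGGGGGtaGGGtgaGGG

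These letters were not found in the transcripts of Kmt2c (chr5:25271798-25498783), Kmt2e (chr5:23434441-23504235), Dhx36 (chr3:62468013-62507004) or Dhx9 (chr1:153455758-153487660). Of the 6711 mRNAs with a transcript of the same identifier and length in the reference, 22.4% held at least 1 match anywhere and 4.72% held one in the coding sequence. Among the 2340 mRNAs of at least 4000 nt, a limit that all 7 mRNAs pass, these shares were 30.5% and 6.45%. Kmt2b, Kmt2a and Kmt2d, at 8454, 16461 and 19823 nt, were longer than 95.3% to 99.9% of mRNAs, and length was not matched more closely. A match is a description of letters and does not show that the RNA folds.

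With the weaker motif, 4 runs of GG with the same spacing, the order of the mRNAs differed. Dhx9 held 7.02 such matches per kb, more than 97.6% of mRNAs, and 29 of its 31 coding matches lay in the closing stretch of the coding sequence (13 in the ninth and 16 in the tenth of 10 equal parts), which encodes a glycine- and arginine-rich end of the protein. Kmt2b held 4.38 and Kmt2d 3.53 matches per kb, more than 83.4% and 71.7% of mRNAs. The values were 1.52 for Kmt2a, 1.25 for Dhx36, 1.07 for Kmt2c and 0.683 for Kmt2e. GC content followed another order, with 59.1% in Kmt2b and 58.4% in Kmt2d at the top and 44.4% in Dhx9 and 40.0% in Dhx36 at the bottom.

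Libraries held between 24440935 and 34114250 counts on genes. The checks of the labels gave a different answer for the 2 clones. Skiv2l stood at 148 ± 0.29 CPM (counts scaled to a common library total; SD, n = 3) in mock libraries of clone 5F at day 0 and at 143 ± 10.4 in the libraries labelled day 4, so this count, taken over the whole gene and not over the deleted exons alone, did not show the deletion. In clone 7E Skiv2l stood at 33.6 ± 2.46 CPM at day 0, already below clone 5F (log2 -2.10, adjusted p = 3.889e-18 by edgeR), and at 13.1 ± 0.70 at day 4. Aven stood at 35.6 ± 0.48 CPM in clone 5F at day 0 and at 2.32 ± 0.58 CPM in clone 7E. The ratio of gene to spike-in counts in mock libraries of clone 7E lay between 312.4 and 322.2 at day 0 and between 151.1 and 155.7 at day 4. In clone 5F it lay between 333.8 and 362.9 at day 0 and between 323.5 and 352 at day 4. In such bulk libraries fewer cells and less RNA per cell cannot be told apart. The 7 mESC markers were all detected and summed to 2686 to 3339 CPM in the mock groups, whereas 5 markers of primitive endoderm summed to 104 to 109 CPM in clone 5F at day 0 and 11.0 to 12.0 in clone 7E, and 5 fibroblast markers to at most 9.27 CPM. The markers moved with the groups, as given beside the results, and their part in the results was not tested.

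CRAC maps RNA fragments crosslinked by UV to a tagged protein, and the authors' deposited table gives for each mRNA the share of pooled, scaled counts found with MTR4 (the helicase of the nuclear exosome), SKIV2L and XRN1 (the cytoplasmic exonuclease that starts at decapped ends). These 3 shares add to 1, so a high share for one lowers the others. AVEN binding is given relative to their total and is not part of the sum. As libraries were pooled, no replicate error can be given for these values, and the depth behind them is unknown.

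The 4 longest Kmt2 mRNAs stood high in AVEN binding. Kmt2d had a relative AVEN binding of 0.616, above that of 94.8% of the 7240 mRNAs, against a median of 0.296. Kmt2a followed with 0.521 (above 89.5% of mRNAs), Kmt2c with 0.487 (86.2%) and Kmt2b with 0.477 (85.1%). Kmt2e stood nearer the middle, with 0.331 (59.8%). The 2 helicases differed, since Dhx9 had 0.476 (84.9%) and Dhx36 0.201 (24.5%). The mRNAs that held a GGG match and those that did not were both found at high AVEN binding. Over the 6711 mRNAs searched, the median AVEN value was 0.283 with a match anywhere in the transcript and 0.300 without. These values are for whole mRNAs and do not place binding along them. The study instead compared short windows upstream of and within coding sequences. It reported that AVEN-bound windows were enriched for paired stretches or predicted G-quadruplexes.

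The decay factors divided the mRNAs differently. The MTR4 share was high for Kmt2e (0.625, above 90.6% of mRNAs), Kmt2a (0.553, 85.1%), Kmt2b (0.502, 79.8%) and Kmt2c (0.500, 79.6%), and lower for Kmt2d (0.263, 35.2%). Kmt2d instead had an XRN1 share of 0.564, above 90.7% of mRNAs. All 5 Kmt2 mRNAs had low SKIV2L shares, from 0.141 for Kmt2a (above 16.5% of mRNAs) to 0.195 for Kmt2b (30.6%). Both helicase mRNAs had higher SKIV2L shares, 0.439 for Dhx36 (81.1%) and 0.392 for Dhx9 (74.4%). The Kmt2 mRNAs were also the less abundant ones, with a median RPKM between 3.84 for Kmt2d and 10.5 for Kmt2c in the authors' RNA-seq of the tagged lines, against 45.4 for Dhx36, 177 for Dhx9 and 21.2 for the median mRNA. Whether length or abundance has a part in the shares was not tested.

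**Figure D1:**
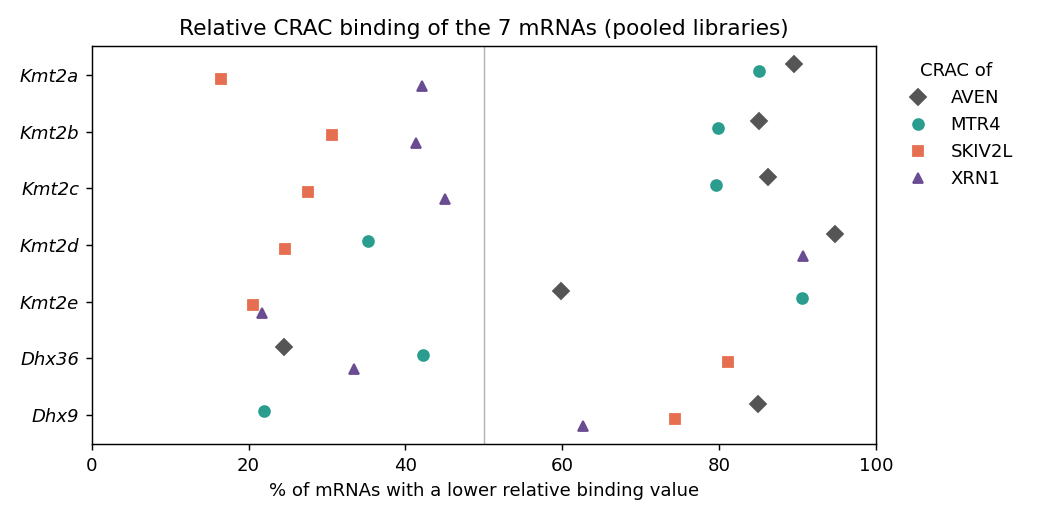
Relative CRAC binding of the 7 mRNAs (rows) to AVEN, MTR4, SKIV2L and XRN1 (symbols), as the percentage of the 7240 mRNAs of the pooled table with a lower value. The SKIV2L squares of all 5 Kmt2 mRNAs lie left of the line at 50 and those of Dhx36 and Dhx9 right of it; the AVEN diamonds lie at 84.9 or higher for Kmt2a, Kmt2b, Kmt2c, Kmt2d and Dhx9.

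Normalised counts are counts over size factors of the libraries of 1 time point, brought to a common scale over time by the ERCC spike-ins. Per kb of transcript, the order of levels in mock libraries of clone 5F at day 0 was Dhx9 (3463 ± 49.1 normalised counts per kb, SD, n = 3), Dhx36 (1235 ± 35.6), Kmt2b (311 ± 40.7), Kmt2c (208 ± 4.3), Kmt2a (139 ± 8.2), Kmt2d (84.2 ± 11.7) and Kmt2e (79.2 ± 3.5). The ranges of Kmt2d and Kmt2e overlapped, and those of the other neighbours did not. In clone 7E at day 4 the order of Kmt2c and Kmt2a was turned, with 180 ± 6.1 and 186 ± 8.7 normalised counts per kb and overlapping ranges.

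Day 4 was compared with day 0 in the mock libraries to ask whether steady-state levels differed between the days. In clone 5F, 5 of the 7 mRNAs were higher in the libraries labelled day 4 (quasi-likelihood test of edgeR, Benjamini-Hochberg adjusted over 16349 genes, threshold 0.05). By the same test 24.5% of all genes were called, 12.8% of them higher and 11.6% lower as shares of all genes tested. The 5 were Dhx9, Kmt2a, Kmt2c, Kmt2d and Kmt2b. Of the mESC markers 1 of 7 was higher and 3 lower, with sums of 3160 to 3207 CPM at day 0 and 2887 to 2996 at day 4, and 2 of 5 endoderm markers were lower and 2 of 4 tested fibroblast markers higher.

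Dhx9 in clone 5F was counted at 15845, 15549 and 15989 normalised counts at day 0 and at 24226, 26616 and 25317 in the libraries labelled day 4. The 2 groups were far apart, with a 1.61-fold higher level at day 4 (log2 0.68 ± 0.04 SE, adjusted p = 5.102e-10 by edgeR).

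Kmt2a, which encodes the founding member of the family, gave 2374, 2346 and 2126 normalised counts at day 0 and 3046, 3310 and 3239 at day 4. The groups did not overlap, and the level was 1.40-fold higher (log2 0.49 ± 0.05 SE, adjusted p = 7.694e-07 by edgeR). Kmt2c, which encodes an enhancer methyltransferase, gave 3132, 3166 and 3041 at day 0 and 3976, 4578 and 4416 at day 4. Its rise was 1.39-fold (log2 0.47 ± 0.05 SE, adjusted p = 8.627e-07 by edgeR).

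Kmt2d, the paralogue of Kmt2c, gave 1582, 1932 and 1491 normalised counts at day 0 and 1900, 2110 and 2435 at day 4. The ranges overlapped by 1 library, and the rise was 1.28-fold (log2 0.36 ± 0.08 SE, adjusted p = 0.00296 by edgeR). Kmt2b, whose product acts at CpG-rich promoters, gave 2443, 3027 and 2421 at day 0 and 2901, 3080 and 3339 at day 4, again with overlap (1.18-fold, log2 0.24 ± 0.07 SE, adjusted p = 0.01538 by edgeR). With DESeq2 neither Kmt2d (adjusted p = 0.07328) nor Kmt2b (0.1526) was called, nor was either without replicate 3 (edgeR adjusted p = 0.1355 and 0.3148). Kmt2b was also not called without replicate 1 (0.0931).

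For the other two mRNAs no change was called in clone 5F. Kmt2e gave 564 to 609 normalised counts at day 0 and 567 to 664 at day 4, a difference of log2 0.08 with a 95% interval from -0.07 to 0.23. Dhx36 gave 6718 to 7103 at day 0 and 5979 to 6674 at day 4. These ranges did not overlap, and the difference was log2 -0.11 with an interval from -0.21 to -0.01 (adjusted p = 0.09323 by edgeR). Without replicate 2, Dhx36 was called lower (log2 -0.16, adjusted p = 0.007885).

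**Figure D2:**
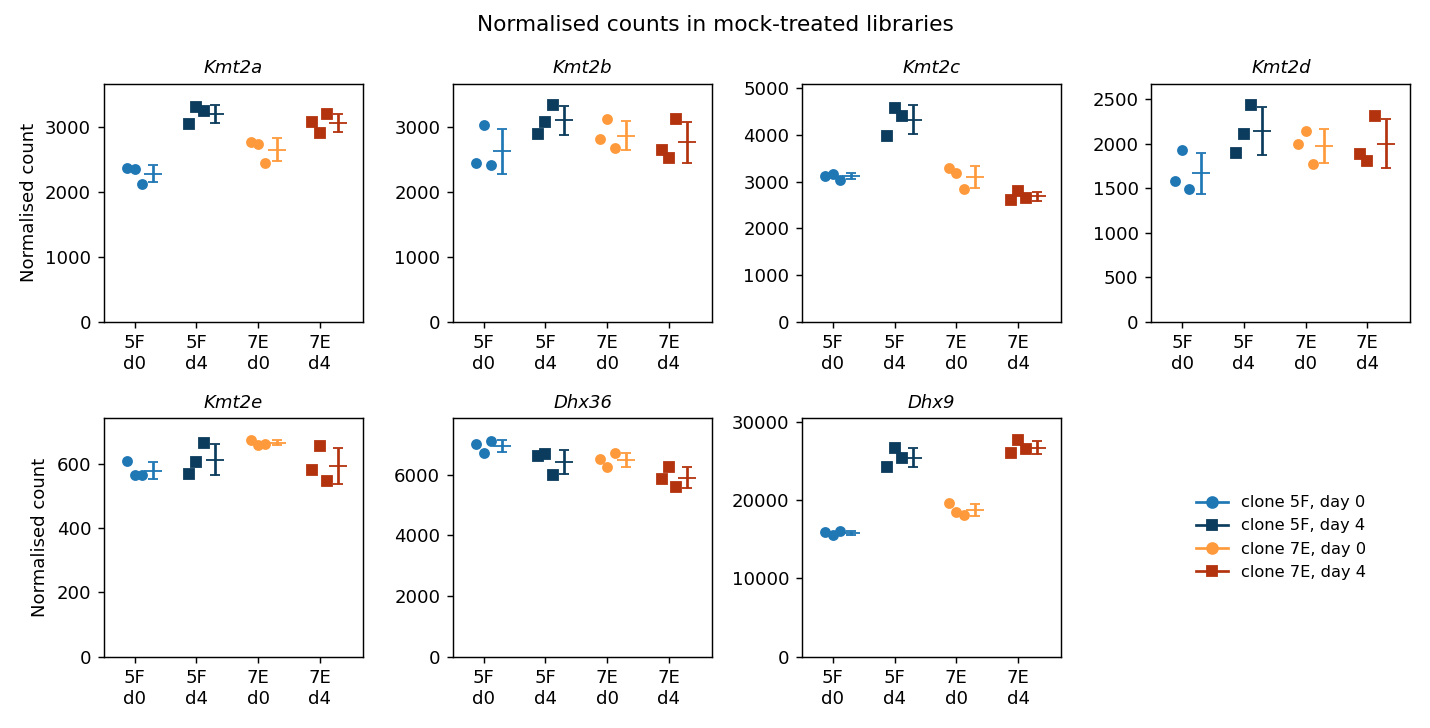
Normalised counts (vertical axes, from 0) of each mRNA in the mock libraries of clones 5F and 7E at day 0 (d0) and day 4 (d4); points are libraries and the bars beside them the mean ± SD of 3. Dhx9 was higher at day 4 in both clones, whereas Kmt2c was higher at day 4 in clone 5F and lower in clone 7E.

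In clone 7E, 4 of the 7 mRNAs were called, 2 higher and 2 lower at day 4, where 40.1% of 16333 genes were called, 20.7% higher and 19.4% lower. Of the mESC markers 6 of 7 were lower (median log2 -0.20), with sums of 3221 to 3339 CPM at day 0 and 2686 to 2768 at day 4. Of 4 tested fibroblast markers 3 were higher (median log2 1.24), with sums of 2.27 to 2.79 CPM at day 0 and 5.22 to 6.72 at day 4. Dhx9 gave 19549, 18444 and 18125 normalised counts at day 0 and 25983, 27650 and 26444 at day 4. It was again the mRNA with the largest difference among the 7, 1.43-fold higher with no overlap (log2 0.51 ± 0.05 SE, adjusted p = 3.431e-09 by edgeR). Kmt2a gave 2772, 2731 and 2453 at day 0 and 3074, 2911 and 3195 at day 4. This rise was 1.15-fold, also with no overlap (log2 0.21 ± 0.06 SE, adjusted p = 0.004484 by edgeR), and was not called without replicate 3 (0.1001).

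Kmt2c moved the other way in clone 7E. It gave 3287, 3178 and 2842 normalised counts at day 0 and 2617, 2791 and 2656 at day 4, with no overlap, a fall of 0.21 ± 0.06 on the log2 scale (adjusted p = 0.004564 by edgeR) that was not called without replicate 1 (0.1883). Dhx36 fell by 0.14 ± 0.05 on the log2 scale (adjusted p = 0.02832 by edgeR), from 6254 to 6702 normalised counts at day 0 to 5590 to 6262 at day 4. These ranges overlapped, and the call was lost without replicate 1 (0.2269) or 3 (0.2818).

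The remaining members were not called in clone 7E. The differences were log2 -0.05 for Kmt2b (95% interval from -0.19 to 0.09), 0.02 for Kmt2d (from -0.14 to 0.18) and -0.17 for Kmt2e (from -0.32 to -0.01, adjusted p = 0.07891 by edgeR). Without replicate 3, Kmt2d in clone 7E was called lower (log2 -0.17, adjusted p = 0.02942) and Kmt2b too (log2 -0.20, adjusted p = 0.006525).

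The levels above are relative to the other genes of a library. When each library was instead scaled to its own spike-ins, the median of all genes in clone 7E stood at -1.10 on the log2 scale, 258 genes were called higher and 14716 lower, and all 7 mRNAs were called lower at day 4. Kmt2a then stood at log2 -0.89 and Dhx9 at -0.59, still above that median, and Kmt2c was at -1.30, below it. In clone 5F the same scaling put the median at -0.07, with 1063 genes higher and 2351 lower, and 4 mRNAs were called higher and Dhx36 lower (log2 -0.18, adjusted p = 0.04594), while Kmt2b was not called (0.1375).

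The change from day 0 to day 4 was then compared between the clones by an interaction term over the 12 mock libraries. The difference was called for 2 of the 7 mRNAs, both with a lower change in clone 7E, where 11.9% of 17209 genes were called, 6.65% with a positive and 5.29% with a negative difference. For Kmt2c the change in clone 7E was lower by 0.68 ± 0.08 on the log2 scale (adjusted p = 1.804e-06 by edgeR), and it was called with each replicate left out. For Kmt2a the difference was log2 -0.28 ± 0.08 (adjusted p = 0.02051 by edgeR), with a lower rise in clone 7E, but it was not called without replicate 1 (0.1225) or 2 (0.1453). Scaled to own spike-ins all 7 differences were called negative, as were 14318 of 17209 genes, with the median gene at log2 -1.03 and Kmt2c at -1.71. The other five differences in the main scaling were also negative, from log2 -0.34 for Kmt2d (adjusted p = 0.1196) to -0.03 for Dhx36 (0.8674), and Dhx9 stood at -0.17 (0.06732). With each library's dependence on GC content and length as covariates, chosen after seeing the data, 6 of the 7 differences were called, all but that of Dhx36. These covariates gave calls for 4073 of 17209 genes, against 2056 in the main fit. Of the markers, 2 of 7 for mESC had a negative difference, and 2 of 5 for endoderm and 1 of 4 for fibroblasts a positive one. With a term for each day, time and replicate number shared by both clones, also chosen after seeing the data, the same 6 differences and 4151 of all genes were called.

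Both clones were also compared at day 0, before 4OHT, to see whether the mRNAs already differed. In clone 7E 3 of the 7 were higher, where 36.2% of 17209 genes were called, 18.1% higher and 18.1% lower. All 5 endoderm markers (median log2 -3.30) and 3 of 4 tested fibroblast markers (median -1.26) were lower in clone 7E, and of the mESC markers 4 were higher and 2 lower. Dhx9 was higher by log2 0.24 ± 0.04 (adjusted p = 7.769e-05 by edgeR), Kmt2a by 0.22 ± 0.06 (0.003697) and Kmt2e by 0.20 ± 0.07 (0.03391). The Kmt2e libraries were 609, 564 and 565 normalised counts in clone 5F and 674, 659 and 663 in clone 7E, without overlap, and the call was lost with any 1 replicate left out. Kmt2c did not differ at day 0 beyond the spread, with log2 -0.01 (95% interval from -0.12 to 0.11). The comparisons of mock levels share groups of libraries and do not support each other. Scaled to the spike-ins of each library, the median gene was at log2 -0.17 between clones at day 0 (1573 genes higher and 6269 lower), and Kmt2a, Kmt2e and Dhx9 were not called while Dhx36 was called lower (log2 -0.26). With the GC and length covariates 5 were called higher, and Dhx36 lower by 0.10, beside 3963 genes higher and 4028 lower of 17209.

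The partners of the KMT2 proteins were followed beside them. Of 16 further COMPASS and MLL complex genes, 15 were tested, and in clone 5F 5 were higher and 4 lower at day 4 (median log2 0.05, all genes -0.01), where 24.5% of all genes were called. Setd1b, the methyltransferase of another COMPASS complex, rose by log2 0.53 (adjusted p = 0.0001192), Hcfc1 by 0.27 (0.0002422), and Wdr5, a core subunit shared by these complexes, fell by 0.25 (0.0002584). In clone 7E, where 40.1% of all genes were called, 2 were higher and 3 lower (median -0.06), the 3 lower being the core subunits Dpy30 (log2 -0.34), Wdr5 (-0.33) and Rbbp5 (-0.27). The change differed between clones for 3 of 15, beside 11.9% of all genes, lower in clone 7E for Setd1b (log2 -0.48), Setd1a (-0.34) and Hcfc1 (-0.23). At day 0, 5 were higher and 1 lower in clone 7E, beside 36.2% of all genes called, led by Ash2l with log2 0.72 (adjusted p = 7.204e-12).

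Among 16 other proteins that unwind or bind G-quadruplexes, 4 were higher and 2 lower at day 4 in clone 5F (median log2 -0.04, 24.5% of all genes called), with the helicase Ddx3x at 0.29 and Ddx1 at -0.18. In clone 7E 2 were higher and 5 lower (median -0.11, 40.1% of all genes called), among them the DNA helicases Rtel1 (log2 -0.44) and Pif1 (-0.38), while Ddx3x was higher by 0.36. The change was lower in clone 7E for 4 of the 16, beside 11.9% of all genes called in either direction, of which Rtel1 differed by log2 -0.39 (adjusted p = 0.0002952) and Pif1 by -0.34. At day 0, 4 were higher and 1 lower in clone 7E (36.2% of all genes called), with Hnrnph1 at log2 0.51 and the helicase Wrn at 0.48.

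The H3K4 demethylases, which remove the mark that KMT2 proteins set, gave 2 higher and 1 lower of 5 in clone 5F and 0 higher and 3 lower in clone 7E, beside 24.5% and 40.1% of all genes called. Kdm1b fell in both clones, by log2 0.36 (adjusted p = 0.0005875) in clone 5F and by 0.53 (8.768e-07) in clone 7E. Kdm5c rose by 0.22 and Kdm5a by 0.14 in clone 5F, and Kdm5b fell by 0.18 and Kdm1a by 0.11 in clone 7E. Kdm5b was the 1 of 5 called in the difference between clones (log2 -0.25, adjusted p = 0.001774; 11.9% of all genes) and at day 0, lower in clone 7E (log2 -0.19, adjusted p = 0.0002102; 36.2%). Of the 3 lists, the decay slope of no gene was called in any of the comparisons described next.

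Actinomycin D separated the members into fast and slow mRNAs. At 120 min clone 5F at day 0 kept 21.9% ± 1.41 of the mock level of Kmt2e (SD, n = 2), and 4.2% of the 10593 genes with a mean of at least 100 counts kept less. Kmt2a kept 33.4% ± 3.46, Kmt2b 38.5% ± 6.55 and Kmt2d 50.0% ± 2.89, all below the median gene with 60.9%. The other three were at or above it, with 62.7% ± 2.53 for Dhx9, 67.7% ± 2.43 for Kmt2c and 70.0% ± 1.00 for Dhx36.

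By 360 min the order was nearly the same in that group. Kmt2e was at 11.1% ± 1.49 (SD, n = 3), Kmt2a at 15.1% ± 1.66, Kmt2b at 21.8% ± 2.60 and Kmt2d at 25.6% ± 4.72. Kmt2c was at 31.4% ± 2.46, Dhx9 at 37.9% ± 4.21 and Dhx36 at 41.2% ± 1.89, beside 41.7% for the median gene. In each of the 4 groups Kmt2e kept least and Dhx36 kept most at 120 and 360 min. The ranges of Kmt2b and Kmt2d overlapped at 240 and 360 min in each group.

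**Figure D3:**
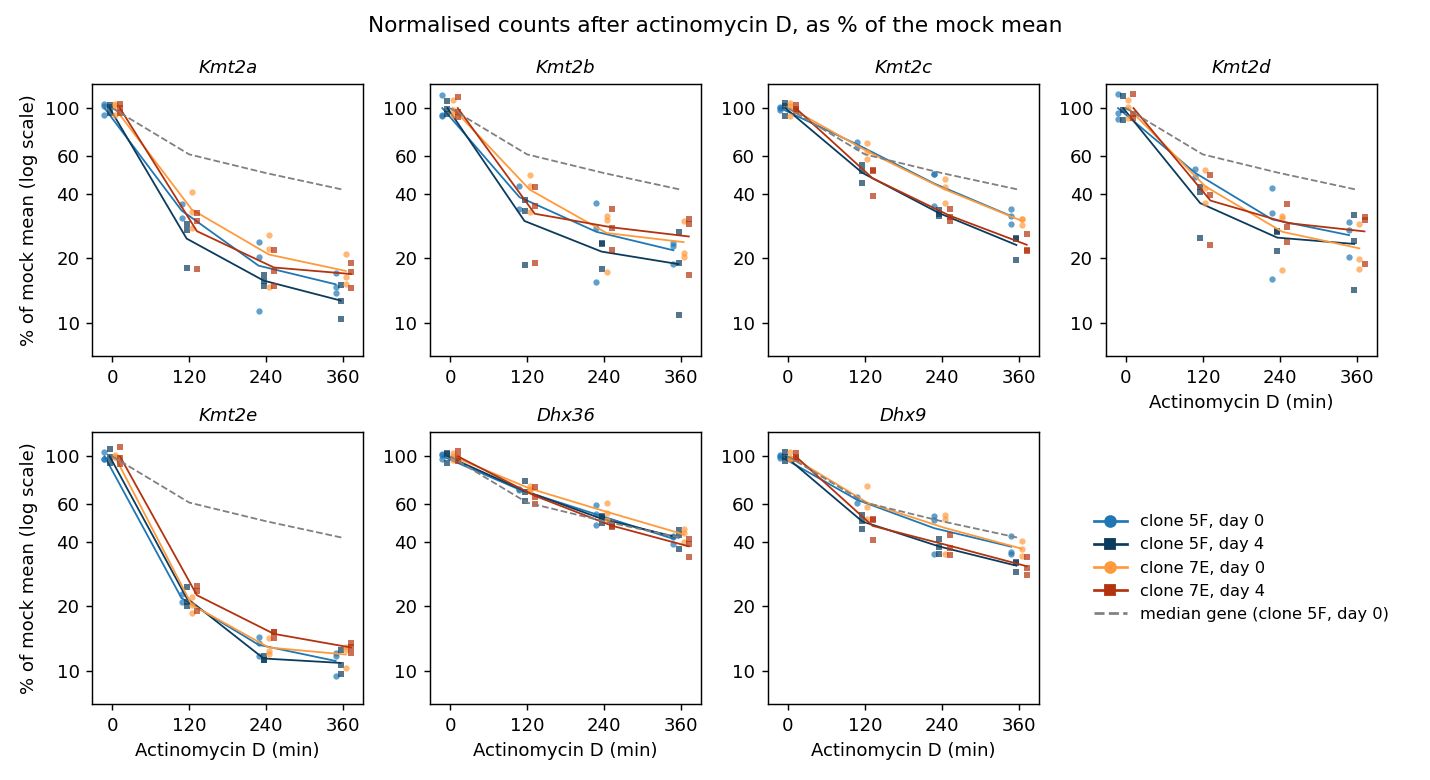
Normalised counts of each mRNA as a percentage of the mock mean of the same clone and day (vertical axis, log scale) against minutes of actinomycin D; points are libraries, lines join group means, and the dashed line is the median of 10593 genes in clone 5F at day 0. Kmt2e, Kmt2a, Kmt2b and Kmt2d lie below the dashed line, Dhx36 near it, and the day 4 lines of Kmt2c and Dhx9 below their day 0 lines.

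Straight-line fits of ln(normalised count + 1) on time gave half-lives in clone 5F at day 0 of 115 min for Kmt2e, 130 min for Kmt2a, 164 min for Kmt2b, 177 min for Kmt2d, 213 min for Kmt2c, 255 min for Dhx9 and 283 min for Dhx36. In clone 7E at day 0 they were 122, 144.5, 172, 164, 207, 256 and 300.5 min in that order. The slopes behind them had SEs from 0.01 log2 per hour for Dhx36 to 0.07 for Kmt2e in clone 5F at day 0. At day 4 Kmt2c had 172 min in clone 5F and 173.5 min in clone 7E, and Dhx9 had 219.5 and 221 min. Most loss of Kmt2e, Kmt2a, Kmt2b and Kmt2d came in the first 120 min, so a single rate describes these mRNAs poorly. In clone 5F at day 0, leaving out the mock libraries gave 257 min for Kmt2e, 220.5 for Kmt2a, 305 for Kmt2b and 259 for Kmt2d. Over all groups the half-lives of the 7 mRNAs then ran from 214.5 to 749.2 min. The longest was that of Kmt2b in clone 7E at day 4, with a slope of -0.08 ± 0.09 SE log2 per hour. Half-lives also depend on the spike-in factor, without which they ran from 180.5 to 9444 min. Differences in slope between days or clones do not depend on it.

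Whether decay changed was asked with a term for the slope of day 4 minus that of day 0, in log2 units per hour, so that a negative value means faster loss at day 4. None of the 7 mRNAs was called in clone 5F (edgeR, 35 of 17901 genes called, 0.196%, with 0.134% positive and 0.0614% negative, and 674 genes at an unadjusted p under 0.05). None was called in clone 7E (154 of 17417 genes, 0.884%, with 0.402% positive and 0.482% negative, and 1510 unadjusted). In tests on simulated libraries of clone 5F, 1% of slope differences of 0.1 and 57% of those of 0.2 were recovered, so differences of 0.1 were rarely detectable here. These shares are over genes with a mean of at least 100 counts, with noise drawn independently for each library. For Kmt2a, Kmt2b, Kmt2d and Kmt2e, with SEs of 0.07 to 0.09, recovery was not simulated separately.

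Kmt2c and Dhx9 had the most negative values in both clones, though in clone 7E Dhx36 (-0.0328) stood close to Dhx9 (-0.0392). The slope of Kmt2c differed by -0.07 ± 0.03 SE in clone 5F (95% interval from -0.13 to -0.01, adjusted p = 1.0) and by -0.06 ± 0.03 in clone 7E (from -0.12 to 0.01, adjusted p = 0.6641). Library by library, Kmt2c kept 66.0% and 69.4% of its mock mean at 120 min in clone 5F at day 0, and between 44.8% and 54.2% at day 4. At 360 min it kept 28.9% to 33.8% at day 0 and 19.6% to 24.8% at day 4. The ranges of the days were likewise apart in clone 7E, from 57.8% to 68.5% against 38.9% to 51.5% at 120 min and from 28.7% to 30.5% against 21.6% to 25.9% at 360 min. All libraries of a group share 1 mock mean, so a gap at 1 time is not independent of a gap at another.

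The slope of Dhx9 differed by -0.04 ± 0.03 SE in clone 5F (interval from -0.11 to 0.03) and by -0.04 ± 0.04 in clone 7E (from -0.12 to 0.04). At 120 min it kept 60.9% and 64.5% of the mock mean in clone 5F at day 0 and 45.7% to 53.3% at day 4. The clone 7E libraries kept 51.3% to 72.8% at day 0 and 40.8% to 50.8% at day 4, ranges that only just failed to overlap, and at 240 min the ranges overlapped in both clones. At 360 min the days were again apart in clone 5F, with 35.0% to 42.8% against 28.8% to 32.2%. In clone 7E the ranges again only just failed to overlap, with 34.3% to 40.3% against 28.0% to 34.1%. With the mock and 120 min libraries alone, an alternative chosen after seeing the data, Kmt2c differed by log2 -0.22 per hour in clone 5F (adjusted p = 0.1549 by edgeR) and -0.21 in clone 7E (0.1654), and Dhx9 by -0.17 (0.2694) and -0.18 (0.2827). Neither passed the threshold.

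For the remaining mRNAs the slope differences were small beside their errors. Dhx36 was followed with the least error, and differed by 0.00 ± 0.02 in clone 5F (95% interval from -0.04 to 0.04) and by -0.03 ± 0.02 in clone 7E (from -0.07 to 0.01). Kmt2a, Kmt2b, Kmt2d and Kmt2e differed by -0.03 to 0.00 in clone 5F and by 0.00 to 0.05 in clone 7E, each with an SE between 0.07 and 0.09. For Kmt2a the interval in clone 7E ran from -0.16 to 0.15, and for Kmt2d from -0.09 to 0.20, so changes of that size in either direction could not be seen.

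The difference in slope change between clones was called for none of the 7 mRNAs, nor for any of 18623 genes by edgeR (0%, with 476 at an unadjusted p under 0.05, and 4 called by DESeq2). It ran from log2 -0.03 per hour for Dhx36 (adjusted p = 1.0) to 0.06 for Kmt2d. With the term for each day, time and replicate number shared by both clones, 463 genes were called, among them Dhx36 (log2 -0.03 per hour, adjusted p = 0.04389 by edgeR). At day 0, decay in clone 7E and clone 5F was called different for none of the 7 mRNAs, where 7 of 18623 genes were called (0.0376%, with 0.0322% positive and 0.00537% negative, and 849 unadjusted). Those values ran from -0.03 for Kmt2d (95% interval from -0.18 to 0.13) to 0.04 for Kmt2a (from -0.12 to 0.20). The shared term gave 1798 genes there and again none of the 7.

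Some libraries stood apart from the others of their group. For each library the dependence of mRNA counts on transcript length and GC content was measured together within its group. In 6 libraries, the same 3 of each clone (day 0, 240 min, replicate 2; day 4, 120 min, replicate 1; day 4, 360 min, replicate 3), long mRNAs were lower by more than 0.06 log2 per doubling of length. GC-rich mRNAs were also lower in the same 6, with changes of -0.1689 to -0.1196 log2 per 10 percentage points of GC content. The lowest such value in any other library was -0.0957. The parts of length and GC content in the deviations of the 7 mRNAs were not tested. In these 6 libraries Kmt2b deviated from its group mean by -0.705 to -0.563 on the log2 scale and Kmt2d by -0.83 to -0.488. Kmt2a deviated by -0.652 to -0.227 and Kmt2c by -0.345 to -0.105. Kmt2e lay between -0.184 and 0.195, and Dhx36 between 0.111 and 0.158. Dhx9, the shortest of the 7, deviated by -0.405 to -0.105. No mock library was among the 6. Without them the slope differences of Kmt2c were -0.07 ± 0.02 in clone 5F (adjusted p = 0.6153 by edgeR) and -0.07 ± 0.02 in clone 7E (0.2582), and no mRNA of the 7 was called in either clone. Labels that name an extraction or sequencing batch for these libraries were not found, and what set them apart was not tested.

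**Figure D4:**
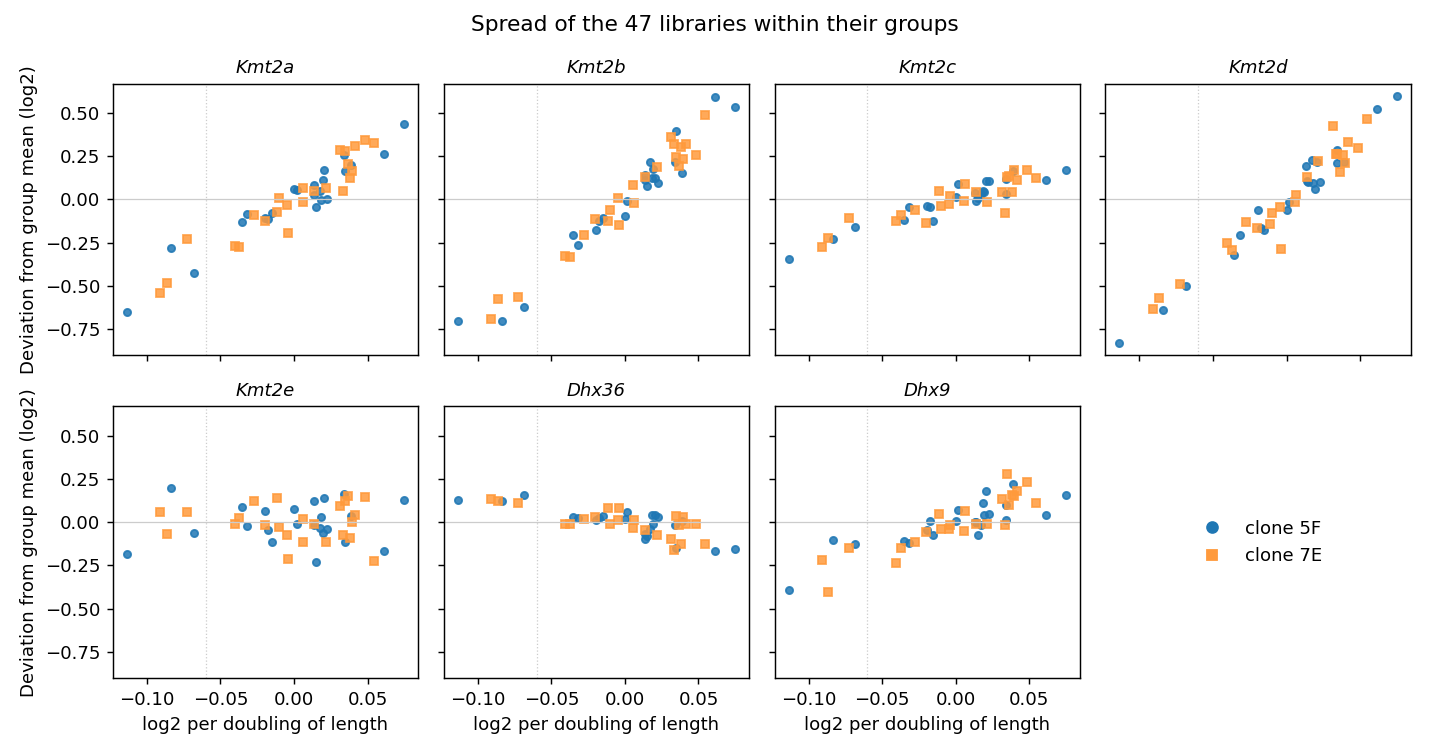
Deviation of each mRNA from its group mean (log2, vertical axis) in each of the 47 libraries, against the library's change in mRNA counts per doubling of transcript length within its group (log2, horizontal axis); the dotted line marks -0.06. Kmt2b and Kmt2d change most steeply along this axis, Dhx36 slightly the opposite way, and Kmt2e hardly. The dependence on GC content, which was also most negative in the libraries left of the dotted line, is not shown.

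Of the members, 3 share exon bases with another gene, and the libraries do not keep the strand. Kmt2e overlaps Srpk2 by 972 bases, Kmt2a an antisense gene by 378 bases and Kmt2c the unclassified Gm42585 by 274 bases, all on the opposite strand, so reads in these stretches cannot be told apart.

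As a description, each mRNA was compared with 10593 genes over the 16 group means (clone, day and time), after subtracting the mean of each time. These points share libraries, day and clone. The genes most like Kmt2c were Macf1 (Pearson's r = 0.979) and Srpk1 (0.972), and those most like Kmt2a were Reps1 (0.975) and Hexim1 (0.96). Kmt2b was most like Arid1b (0.958) and Taf4 (0.957), Kmt2d like Prr12 (0.889) and Srcap (0.877), and Kmt2e like Arrdc2 (0.898) and Mllt10 (0.897). Dhx36 was most like Clns1a and St13 (both 0.987), and Dhx9 like Dst (0.962) and Mybbp1a (0.951). Among the members themselves Kmt2c went with Dhx36 (0.807) and Kmt2a with Dhx9 (0.785) and Kmt2d (0.717), while Dhx36 and Dhx9 were opposed (-0.743).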

How the data were processed

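The half-life libraries were rRNA-depleted, unstranded and read from 1 end. The authors mapped reads to GRCm38 with ERCC spike-in sequences, kept uniquely mapped reads and deposited raw counts per gene without normalization. The authors' deposited CRAC table holds ratios of pooled, scaled counts, RPKM from RNA-seq of the tagged lines, and a score in which the ratio is further divided by RNA level, used here as an alternative. Deposited half-lives, fold changes and p-values are the authors' own comparisons and were not used. Every per-sample column was used (0 left out).

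The software was DESeq2 1.42.0, edgeR 4.0.16 and limma 3.58.1, run in R 4.3.3. Symbols for 53274 of 53380 genes came from Gencode M21 on GRCm38, a later release than the one the authors used. Size factors were computed by DESeq2's method within each time point. Counts over these size factors were multiplied by 1 factor per time point (1, 0.6489, 0.5311 and 0.4375), the median ratio of gene to ERCC counts over the 34 ERCC sequences with a mean above 50. The study writes of a division by this factor. Genes passing filterByExpr were tested by edgeR's quasi-likelihood test with a Benjamini-Hochberg threshold of 0.05, on all genes. Day comparisons were fitted within a clone, and comparisons between clones over all mock or time-course libraries. Half-lives used a pseudocount of 1. Counts were converted to CPM for the checks of labels and markers.

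The tests were tried on simulated data with 200 changed genes: 94% of differences of 0.5 log2 in mock levels of clone 5F and 57% of slope differences of 0.2 were recovered. The lowest chi-square per gene between replicate libraries was 2.53, so none was treated as a copy. The 7 members and the gene lists were chosen with earlier results of these data known. All 7 members are named, and from each list up to 3 genes per comparison, which passed the threshold, averaged 100 counts or more and differed most. One gene that this rule names is not reported here. Alternatives were other scalings, tools, filters, time points and covariates, a replicate block and each replicate left out. Replicate 2 of clone 5F, day 0, 120 min was not analysed here. Labels give 5 ug/ul actinomycin D and the study's methods a micromolar concentration.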

Additional observations from a re-analysis of the deposited data

Results flagged for a closer look

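The change of 2 mRNAs from day 0 to day 4 in mock libraries differed between the clones by the test of the difference itself. For Kmt2c the change in clone 7E minus that in clone 5F was -0.68 on the log2 scale (adjusted p = 1.804e-06 by edgeR's quasi-likelihood test over 17209 genes). It rose in 3 of 3 libraries labelled day 4 over all day 0 libraries of clone 5F, and was lower in 3 of 3 in clone 7E. For Kmt2a the difference was -0.28 (adjusted p = 0.02051 by edgeR), with all 3 day 4 libraries above all day 0 libraries in both clones. The clones differ in Aven, in the tag on Skiv2l, in BirA, in the RNA level of Skiv2l at day 0 and day 4 and in clonal history, which cannot be told apart.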

How the results depend on the processing

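Of 343 values of the 7 mRNAs on mock levels under another setting, 287 kept their call or lack of one, 19 lost the call, 33 gained one and 4 reversed. Of 448 on decay slopes, 447 kept theirs. Among the values so kept, 43 on decay slopes and 4 on mock levels, not called in either fit, changed sign. In clone 5F DESeq2 called 3 of the 7 mRNAs in mock levels, and leaving out each replicate gave 3 to 6. In clone 7E leaving out each replicate gave 2 to 5. Scaled to each library's own spike-ins, 7 were called in clone 7E, 7 in the difference between clones and 1 between clones at day 0; in clone 7E Kmt2a then reversed to -0.89, Kmt2d to -1.08 and Dhx9 to -0.59. Kmt2d in clone 7E ran from -0.17 to 0.15 with a replicate left out. For the difference between clones, leaving out each replicate gave 1 to 3. With covariates for each library's dependence on GC content and length, chosen after seeing the data, 6 were called there and 6 between clones at day 0. Over all genes these covariates raised the calls from 2056 to 4073 and from 6231 to 7991. For the other alternatives the cause was not tested.

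Same-numbered libraries of the 2 clones at 1 day and time deviated together in 22 of 23 pairs (correlation above 0.1, range 0.079 to 0.845 over 10226 genes). The median correlation was 0.474, and the 6 libraries that stood apart had the same day, time and number in both clones. One pair missed that limit and no label ties the numbers to a batch, so the main fits did not take the clones as paired. Those fits leave this shared deviation out. Across days 7 of 11 pairs of clone 5F and 6 of 12 of clone 7E passed. With the replicate block, 5 mRNAs were called in mock levels of clone 5F, 3 in clone 7E (without Dhx36), 2 in the difference between clones and 3 at day 0, and 0 in decay. A replicate block by day, time and number, chosen after seeing the data, gave 6 in the difference between clones (4151 of all genes against 2056 without it), 6 at day 0 (8037 against 6231), 1 in the slope difference between clones (Dhx36, log2 -0.03 per hour, adjusted p = 0.04389 by edgeR; 463 genes against 0) and 0 in the slopes at day 0 (1798 genes against 7).

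In 20 of 224 refits the slope behind a half-life moved by more than its SE times the square root of the number of libraries. That limit is wide, since Kmt2a in clone 5F at day 0 went from 130.2 to 226 min without the spike-in factor and stayed within it. Of 41 CRAC percentiles recomputed, 40 stayed on their side of 50 and Dhx36 for MTR4 moved to 50.3 with ratios divided by RPKM. Technical replicates, 1 clone per genotype and slope errors of up to 0.09 log2 per hour limit what can be detected, and CRAC values have no replicate error.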
